A study of Mus musculus with 14 samples.

Results

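A set of 10 genes that bind, carry or store fatty acids was followed by name through the liver and pancreatic stellate cell (PSC) RNA-Seq of a study on the calcium channel TRPV4 in pancreatic cancer. They were the fatty acid-binding proteins Fabp1, Fabp2, Fabp4, Fabp5 and Fabp7, the fatty acid receptor Cd36, the lipid droplet proteins Plin2, Plin4 and Cidec, and the secreted lipase inhibitor Angptl4. All 10 were among the 54532 genes of the liver count table and all 10 passed its filter on low counts. The PSC table listed 7 of the 10 among its 16481 genes and 6 of those passed its filter. Fabp1, Fabp2 and Cidec were not listed there. The genes were chosen by their fold changes and values in the 3 liver group comparisons and in the PSC comparison, so those differences are given as a description, without p-values.

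Livers came from mice aged 8 to 12 weeks, 20 days after 100000 KPCY cells (mouse pancreatic cancer cells with a yellow fluorescent tag) were put into the tail of the pancreas. The WT group (n = 2) was Piezo1 fl/fl mice without Cre, the TRPV4-KO group (n = 3) lacked Trpv4 in all tissues of the host, and the GSK219 group (n = 3), labelled WT in genotype, received the TRPV4 blocker GSK2193874 by gavage at 10 mg/kg each day. The injected tumor cells carried functional TRPV4 in every group, and whether WT mice received vehicle is not given in the sources used here. PSCs were mouse cells from 3 preparations grown on Matrigel, each treated with DMSO or with 25 µM Yoda1, a chemical agonist of the mechanically gated channel PIEZO1. The sources used here give 2 different lengths for that treatment.

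Liver libraries held 15567031 to 17395299 counts and PSC libraries 27312894 to 39070539 recovered reads. Trpv4 itself had 43 and 53 counts in WT livers, 5 to 23 in TRPV4-KO livers and 20 to 36 in GSK219 livers. Reads of the X-linked transcript Xist (at least 13681 counts) marked the livers of 3 mice, the first WT animal and the last of either other group. At most 7 such counts were seen in the other 5 livers, which held at least 2444 Y-linked counts. Of the livers with Xist reads, the WT liver held 56 Y-linked counts, the TRPV4-KO liver (replicate 3) held 252 and the GSK219 liver (replicate 3) held 106. Hepatocyte markers summed to 63650 to 107332 CPM (liver counts scaled by TMM-adjusted library size) in the livers. Of 14 stellate cell and fibroblast markers 12 had reads in every PSC library, while the quiescent stellate markers Lrat and Gfap were not listed in the PSC table. All 10 ductal and tumor epithelial markers had reads in every PSC library too. Coordinates below are those of the deposited liver table, which for 9 of the 10 genes equal GENCODE M21 on GRCm38 (Angptl4 ends earlier in the table).

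Fatty acids enter cells partly through Cd36 and are ferried through the cytoplasm by small fatty acid-binding proteins, each typical of certain tissues. Inside the cell they are oxidized or stored as triglyceride in lipid droplets, whose surface is coated by perilipins (Plin genes) and enlarged by Cide proteins. Fatty acids also activate peroxisome proliferator-activated receptors (PPARs), and many genes of this group, among them Fabp1, Fabp4, Cd36, Plin2 and Angptl4, are known PPAR targets. In the liver Fabp1 is the main form of hepatocytes, whereas Fabp4 and Fabp5 are known from adipocytes, macrophages and endothelium.

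PPARs bind 2 copies of AGGTCA spaced by 1 base, so the RefSeq promoters of these genes (GRCm38.p6, 250 bases before to 50 after the start) were searched on both strands for AGGTCA and for that repeat with any base as the spacer. A promoter was held for 7 of the 10 genes, not for Fabp4, Fabp5 or Angptl4. The single site AGGTCA was in 4 of them, Fabp1, Fabp7, Cd36 and Plin2, and in 16.3% of 32851 promoters. The exact repeat was in none of them and in 0.0396% of all promoters. With at most 1 mismatch it was in the Fabp1 promoter and in 0.554% of all promoters. That Fabp1 match ran from base −67 to −55 relative to the start and differed from the repeat by T4C, counted from 1 at the 5′ end of the repeat in its own orientation. One match per gene is shown, as examples of the core of the PPAR element in 4 members of the set. Fabp1 held another AGGTCA at bases −9 to −4, within an annotated Fabp1 exon, which is not shown. Each is written 5′ to 3′ on the strand of its gene, where the motif reads as its reverse complement, with the match in capitals.
Fabp1, chr6:71199799-71199825, plus strand: aatcgacaatcacTGACCTATGGCCTa
Plin2, chr4:86670255-86670294, minus strand: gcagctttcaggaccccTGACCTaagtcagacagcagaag
Cd36, chr5:17836102-17836141, minus strand: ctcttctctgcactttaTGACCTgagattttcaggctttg
Fabp7, chr10:57784735-57784774, plus strand: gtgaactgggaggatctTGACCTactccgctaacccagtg
None of the 4 stretches shown overlapped an annotated exon. The Cd36 stretch lies within the gene, because longer Cd36 transcripts start further upstream. A match is a description of letters and not a measured binding site.

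Levels between genes were compared as CPM per kilobase of the length given in the deposited table. Over the 8 livers Fabp1 was the most abundant of the 10, at a mean of 1986 CPM per kilobase, and Plin2 was next at 92.4. The lowest Fabp1 liver (1299) lay above the highest Plin2 liver (129), and the lowest Plin2 liver (67.3) above the highest liver of the next gene, Angptl4 (51.4). From Angptl4 downward, neighbors in the order overlapped, through Fabp2, Cd36, Fabp5, Fabp7, Cidec and Plin4 to Fabp4 at a mean of 0.940. Fabp5 was the third of the 10 in WT livers, at 30.4 CPM per kilobase, and the sixth in TRPV4-KO (5.49) and GSK219 livers (5.17). The deposited length of Fabp4, 4489 bases, spans the whole gene, introns included, which lowers its value per kilobase. That of Fabp5, 3567 bases, covers most of its gene from 10012548 to 10016607, so its ranks per kilobase in livers and PSCs may be lowered as well.

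**Figure D1:**
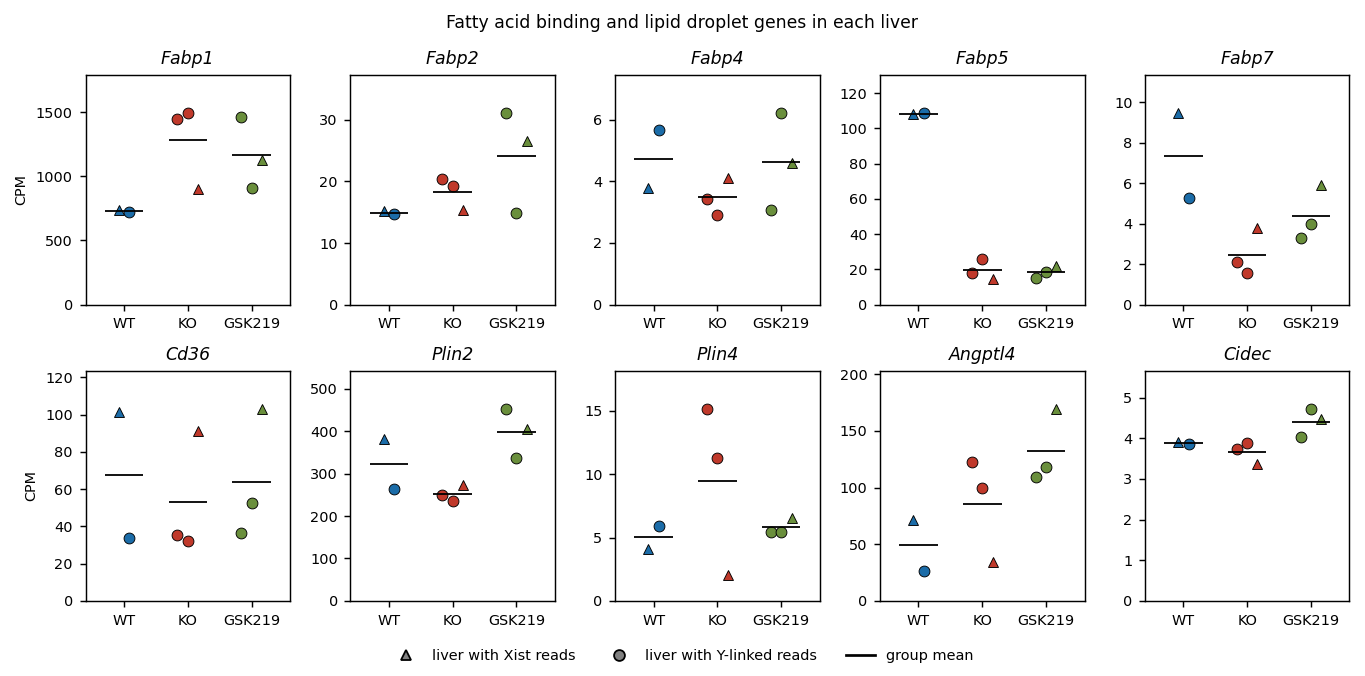
CPM, the counts scaled by TMM-adjusted library size, of each gene in each liver, by group (WT, n = 2; TRPV4-KO, labelled KO, n = 3; GSK219, n = 3), each panel with its own linear axis from 0. Triangles are the 3 livers with Xist reads, circles the 5 with Y-linked reads, and bars are group means. Fabp5 stood at 108 and 109 CPM in WT and at no more than 26.0 in the other 6 livers, while Cd36 was highest in the triangle of every group.

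Fabp5 (ENSMUSG00000027533, chromosome 3, 10012548 to 10016607), the epidermal form that also carries fatty acids in macrophages, showed the widest separation between WT livers and the rest. It was at 108 and 109 CPM in WT replicates 1 and 2. It was at 18.1, 26.0 and 14.6 CPM in TRPV4-KO replicates 1 to 3 and at 14.9, 18.5 and 21.9 CPM in GSK219 replicates 1 to 3. Both WT livers were thus above all 6 other livers, and the TRPV4-KO and GSK219 livers overlapped. All WT libraries lay above all TRPV4-KO libraries for 17.7% of genes and above all GSK219 libraries for 15.6%.

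On the log2 scale the fitted difference (edgeR) of Fabp5 was 2.47 ± 0.24 (SE) between WT and TRPV4-KO, which is 5.53-fold. It was 2.56 ± 0.24 between WT and GSK219, or 5.88-fold, and 0.09 ± 0.22 between TRPV4-KO and GSK219, which ran from −0.17 without TRPV4-KO replicate 2 to 0.26 without TRPV4-KO replicate 3. The 2 comparisons with WT share the same 2 control livers. Within the livers with Xist reads the WT liver was higher than TRPV4-KO by 2.89 and than GSK219 by 2.30 on the log2 scale of CPM. Within the livers with Y-linked reads these differences, against the mean of the other group, were 2.30 and 2.71.

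A gene is here called different when its Benjamini-Hochberg adjusted p-value is below 0.05 and its change exceeds 2-fold. In the liver group and PSC comparisons by which the 10 genes were chosen, a call of one of them is part of the description and no test of it. Fabp5 was the 1 gene of the 10 called between WT and TRPV4-KO, where 0.265% of all genes were called (23 or 0.152% higher in WT and 17 or 0.112% higher in TRPV4-KO). None of the 10 was called between WT and GSK219, where edgeR called 0% of genes (0 of 15118), although 1242 had an unadjusted p under 0.05 and DESeq2 called 64 genes higher and 10 lower in WT. None of the 10 was called between TRPV4-KO and GSK219, where 0.0992% of genes were called (0.0529% higher in TRPV4-KO and 0.0463% higher in GSK219), 925 had an unadjusted p under 0.05 and DESeq2 called 45 genes higher and 48 lower in TRPV4-KO. The call of Fabp5 between WT and TRPV4-KO was lost when WT replicate 1, WT replicate 2 or TRPV4-KO replicate 1 was left out, while its log2 difference stayed between 2.30 and 2.73 over all 8 such fits. Between WT and GSK219 Fabp5 was called by DESeq2, without the filter on low counts (7 genes called higher in WT), with a term for Xist or Y-linked reads (2 genes) and with only these 2 groups in the fit (2 genes), as well as without TRPV4-KO replicate 2 or 3. A block for the replicate number called Fabp5 there too.

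Summed levels of macrophage, neutrophil and stellate cell or fibroblast markers were also higher in both WT livers than in the other 6, although few single markers were called. The 10 macrophage markers summed to 1609 and 1861 CPM in WT, to 451 to 1003 CPM in TRPV4-KO and to 486 to 1168 CPM in GSK219 livers. All 10 were above 0 in both comparisons with WT, with a median log2 difference of 1.31 against TRPV4-KO and 1.09 against GSK219, and 0 of 10 were called. The Kupffer cell lectin Clec4f differed by 1.36 ± 0.38 (adjusted p = 0.16, edgeR), the phagocytic receptors Timd4 by 1.32 ± 0.39 (adjusted p = 0.17) and Vsig4 by 1.59 ± 0.56 (adjusted p = 0.23) between WT and TRPV4-KO. The 10 neutrophil markers summed to 53.0 and 66.2 CPM in WT, 1.71 to 7.41 in TRPV4-KO and 2.39 to 6.46 in GSK219 livers, and all 9 that were tested lay above 0 in both comparisons. S100a8 and the chemokine receptor Cxcr2 were called higher in WT than in TRPV4-KO, by 3.67 ± 0.47 and 3.33 ± 0.43 (adjusted p = 0.028 for both, edgeR). The 14 stellate cell and fibroblast markers summed to 501 and 769 CPM in WT, 215 to 425 CPM in TRPV4-KO and 249 to 402 CPM in GSK219 livers. All 14 were above 0 in both comparisons with WT, with medians of 0.90 and 0.71, and 0 of 14 were called. The 10 ductal and tumor epithelial markers summed to 680 and 620 CPM in WT, above the 460 to 580 CPM of GSK219 and overlapping the 406 to 659 CPM of TRPV4-KO livers. That sum was mostly Krt8 and Krt18, at means of 369 and 261 CPM in WT. Krt19 and Krt7 were at means of 1.32 and 1.24 CPM in WT, 1.78 and 1.30 in TRPV4-KO and 1.02 and 0.548 in GSK219. Of the 7 markers of this list that were tested, 7 were above 0 against GSK219 (median 0.37) and 5 against TRPV4-KO (median 0.34). The 12 endothelial markers overlapped between groups (591 and 671 CPM in WT, 426 to 642 in TRPV4-KO and 491 to 677 in GSK219), with 9 of 12 above 0 in both comparisons, and 0 of either list were called. The part of these cells in the Fabp5 difference was not tested, and in bulk tissue fewer cells of a type and less RNA per cell cannot be told apart.

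The 3 genes whose log2 CPM followed Fabp5 most closely over the 8 livers were Tmem268 (Pearson r = 0.97), the myeloid receptor Trem2 (r = 0.97) and Cxcr2 (r = 0.97), out of 15117 genes compared. These points share libraries and the same group differences. The processed copies of Fabp5 in the genome drew few reads, with 1 count for Fabp5l2 and 0 for AC109261.2 over all 8 livers.

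Fabp7 (ENSMUSG00000019874, chromosome 10, 57784881 to 57788450), the brain form of the family, was rare in liver. It was at 9.46 and 5.25 CPM in WT replicates 1 and 2. TRPV4-KO replicates 1 to 3 had 2.09, 1.55 and 3.76 CPM, and GSK219 replicates 1 to 3 had 3.27, 3.99 and 5.92 CPM. Both WT livers were above the 3 TRPV4-KO livers, as was the case for 17.7% of all genes, and WT overlapped GSK219. The log2 difference was 1.57 ± 0.43 between WT and TRPV4-KO, 0.74 ± 0.43 between WT and GSK219 and −0.83 ± 0.40 between TRPV4-KO and GSK219. The second was 0.25 without WT replicate 1 and 1.10 without WT replicate 2. The third was −1.27 without TRPV4-KO replicate 3 and −0.55 without GSK219 replicate 3. It was called between WT and TRPV4-KO by DESeq2, which called 2 of the 10 genes and 370 higher and 119 lower over all genes. It was also called with a term for Xist or Y-linked reads, where 2 of the 10 and 252 higher and 73 lower over all genes were called. A block for the replicate number called Fabp7 there too.

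Fabp1 (ENSMUSG00000054422, chromosome 6, 71199827 to 71205023), the liver form, went the other way. It was at 734 and 718 CPM in WT replicates 1 and 2. It was at 1444, 1494 and 902 CPM in TRPV4-KO and at 1459, 912 and 1125 CPM in GSK219 replicates 1 to 3. Both WT livers were below all other livers. WT was lower by 0.82 ± 0.26 on the log2 scale against TRPV4-KO (1.76-fold) and by 0.68 ± 0.26 against GSK219 (1.61-fold), and TRPV4-KO and GSK219 differed by 0.14 ± 0.23, which ran from −0.013 without GSK219 replicate 2 to 0.33 without TRPV4-KO replicate 3. The 10 hepatocyte markers also summed to less in both WT livers (76296 and 63650 CPM) than in the other 6 (85785 to 107332 CPM), and their part in the Fabp1 difference was not tested. All WT libraries lay below all TRPV4-KO libraries for 15.5% of genes and below all GSK219 libraries for 11.7%. Without TRPV4-KO replicate 3, the liver of that group with Xist reads, Fabp1, Fabp5, Fabp7 and Plin4 were all called between WT and TRPV4-KO, 4 of the 10, in a fit that called 573 genes higher and 149 lower in WT.

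Fabp2 (ENSMUSG00000023057, chromosome 3, 122895072 to 122899506), the intestinal form, was at 15.2 and 14.7 CPM in WT, at 20.4, 19.2 and 15.3 CPM in TRPV4-KO, and at 31.1, 14.8 and 26.5 CPM in GSK219. The WT livers lay below the TRPV4-KO livers by a narrow margin, with a log2 difference of −0.29 ± 0.29, and overlapped the GSK219 livers, with −0.69 ± 0.29. An antisense gene over Fabp2, 4933405D12Rik, had 1 to 6 counts per liver. Fabp4 (ENSMUSG00000062515, chromosome 3, 10204088 to 10208576), the adipocyte and macrophage form, was at 3.77 and 5.65 CPM in WT, 3.41, 2.92 and 4.11 CPM in TRPV4-KO and 3.08, 6.22 and 4.60 CPM in GSK219. The 3 groups overlapped for Fabp4. Its log2 difference was 0.44 ± 0.34 between WT and TRPV4-KO and 0.02 ± 0.34 between WT and GSK219. The first was 0.71 without WT replicate 1 and 0.13 without WT replicate 2. The second was 0.28 and −0.30 without WT replicates 1 and 2, and −0.20 and 0.29 without GSK219 replicates 1 and 2.

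The defining adipocyte markers had few or no counts. Adipoq, the defining adipocyte hormone, had 8 and 9 counts in WT livers, 0 to 3 in TRPV4-KO livers and 0 in the 3 GSK219 livers. Lep had at most 7 counts in a WT liver and 0 in the other groups, and the adipocyte perilipin Plin1 had at most 4 counts in any liver. Of the 10 adipocyte markers 4 passed the filter, Car3, Lipe, Adrb3 and Cfd, and 0 were called in any comparison between liver groups. Lipe had 216 to 390 counts per liver and Adrb3 63 to 400. Cfd had 23 and 73 counts in WT livers, 1 to 38 in TRPV4-KO and 0 to 9 in GSK219 livers. The summed level of the 10, 298 and 876 CPM in WT, 1140 to 1492 CPM in TRPV4-KO and 673 to 1248 CPM in GSK219, was mostly Car3, which hepatocytes also express.

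**Figure D2:**
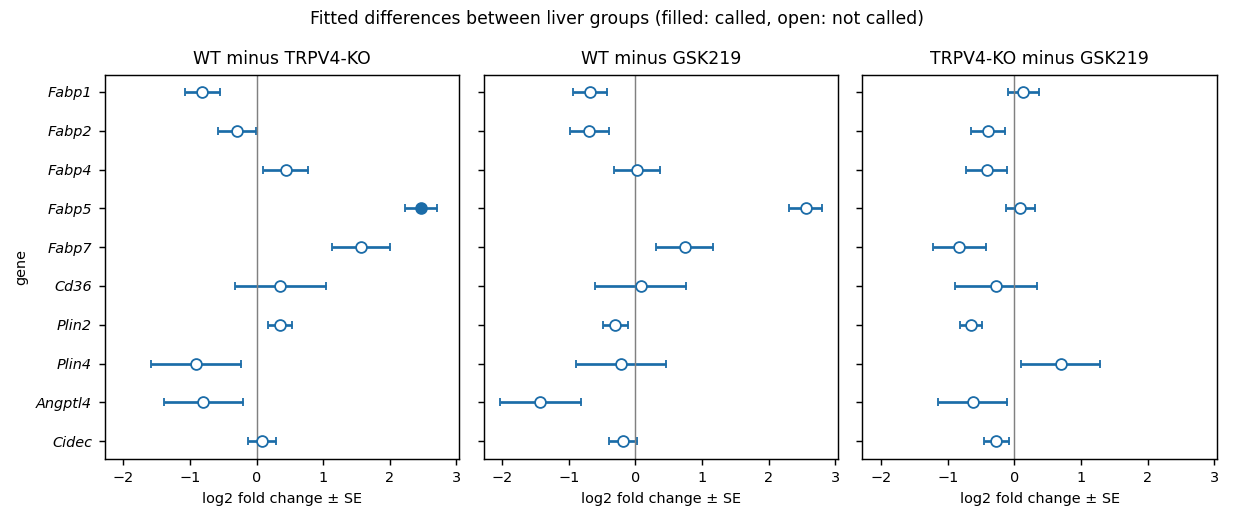
Log2 fold change (x axis) of each gene in the 3 liver comparisons, as fitted by edgeR over all 8 livers. Points are estimates, bars are ± 1 SE, filled points were called and open points were not. Fabp5 is the 1 filled point, at 2.47 for WT minus TRPV4-KO, and sits at 2.56 for WT minus GSK219.

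Cd36 (ENSMUSG00000002944, chromosome 5, 17781690 to 17888801), the membrane receptor for long-chain fatty acids, did not follow the groups. It was at 102 and 33.6 CPM in WT replicates 1 and 2, at 35.3, 32.3 and 90.9 CPM in TRPV4-KO and at 36.3, 52.6 and 103 CPM in GSK219. In each group the 1 liver with Xist reads was the highest. The log2 difference between groups was 0.35 ± 0.68 for WT against TRPV4-KO, 0.08 ± 0.68 for WT against GSK219 and −0.27 ± 0.61 for TRPV4-KO against GSK219. Leaving out single livers moved these values in both directions. The first ran from −0.63 without WT replicate 1 to 0.96 without WT replicate 2 and 1.00 without TRPV4-KO replicate 3, and was 0.13 and 0.097 without TRPV4-KO replicates 1 and 2. The second ran from −0.93 without WT replicate 1 to 0.66 without WT replicate 2, and was −0.20, −0.042 and 0.60 without GSK219 replicates 1 to 3. The third ran from −0.92 without TRPV4-KO replicate 3 to 0.25 without GSK219 replicate 3, and was −0.053 and −0.017 without TRPV4-KO replicates 1 and 2 and −0.56 without GSK219 replicate 1.

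The livers were also compared by Xist and Y-linked reads in edgeR, with terms for group. This comparison was added after the data were seen, and in those same data Cd36 was highest in the liver with Xist reads of each group. The adjusted p-values of Cd36 below therefore describe a pattern seen in these livers and are no independent test of it. Cd36 was higher in the 3 livers with Xist reads (98.4 ± 6.54 CPM, SD, n = 3) than in the 5 with Y-linked reads (38.0 ± 8.27 CPM, SD, n = 5), by 1.39 ± 0.13 on the log2 scale, or 2.63-fold (adjusted p = 0.00081, edgeR over 15118 genes). The lowest liver with Xist reads (90.9 CPM) was above the highest with Y-linked reads (52.6 CPM), as for 6.24% of genes. Cd36 was the 1 gene of the 10 called, against 1.91% of all genes (1.05% higher and 0.86% lower in livers with Xist reads). It stayed called in all 8 fits that left out 1 liver, with log2 differences of 1.30 to 1.50 and adjusted p from 0.00016 to 0.01.

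Fabp7 was higher in livers with Xist reads by 0.86 ± 0.19 (adjusted p = 0.045, edgeR), under the 2-fold cutoff, and kept an adjusted p below 0.05 in 1 of the 8 fits with a liver left out. The other 8 genes had adjusted p-values of 0.36 or more, with log2 differences from −0.84 ± 0.52 for Plin4 to 0.22 ± 0.13 for Plin2. Within the pathway lists this comparison called 6 genes, and 3 without TRPV4-KO replicate 3. Vldlr (3.77 ± 0.47, adjusted p = 0.0066), Pnpla3 (3.19 ± 0.46, adjusted p = 0.0096) and Hacl1 (1.03 ± 0.15, adjusted p = 0.0099) were higher in livers with Xist reads. Fitm1 (−1.59 ± 0.15, adjusted p = 0.00081), the sterol carrier Scp2 (−1.51 ± 0.14, adjusted p = 0.0007) and Cav1 (−1.27 ± 0.20, adjusted p = 0.013) were lower. The 3 livers with Xist reads included the third replicate of both TRPV4-KO and GSK219, so for those groups these reads and the replicate number cannot be told apart.

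Plin2 (ENSMUSG00000028494, chromosome 4, 86648386 to 86670060), the main perilipin of hepatocyte droplets, was at 380 and 264 CPM in WT, 250, 236 and 272 CPM in TRPV4-KO and 451, 336 and 405 CPM in GSK219. The GSK219 livers were all above the TRPV4-KO livers, a log2 difference of −0.65 ± 0.17 for TRPV4-KO minus GSK219 (1.57-fold), and all TRPV4-KO libraries lay below all GSK219 libraries for 4.35% of genes. WT lay between and overlapped both, at 0.35 ± 0.18 against TRPV4-KO and −0.30 ± 0.19 against GSK219. These values were 0.075 and −0.60 without WT replicate 1, and 0.60 and −0.073 without WT replicate 2. Cidec (ENSMUSG00000030278, chromosome 6, 113424634 to 113435760), which promotes the growth of large droplets, moved little, from 3.36 to 4.71 CPM over the 8 livers. Its 3 GSK219 livers (4.03, 4.71 and 4.48 CPM) were above the WT (3.90 and 3.85) and TRPV4-KO livers (3.73, 3.89 and 3.36), with log2 differences of −0.19 ± 0.21 and −0.27 ± 0.19.

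Plin4 (ENSMUSG00000002831, chromosome 17, 56100591 to 56109803), a perilipin best known from adipocytes and muscle, was at 4.08 and 5.94 CPM in WT, at 15.1, 11.3 and 2.03 CPM in TRPV4-KO and at 5.47, 5.44 and 6.58 CPM in GSK219. The TRPV4-KO livers spanned both the highest and the lowest value of the series. The log2 difference was −0.91 ± 0.68 between WT and TRPV4-KO and −0.22 ± 0.67 between WT and GSK219. The first was −0.40 without TRPV4-KO replicate 1 and −1.39 without TRPV4-KO replicate 3. The second was 0.021 without WT replicate 1, −0.52 without WT replicate 2 and −0.12 without GSK219 replicate 3. The end of Plin4 overlaps that of Hdgfl2 on the other strand, which had 434 to 587 counts per liver.

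Angptl4 (ENSMUSG00000002289, chromosome 17, 33773750 to 33781575), an inhibitor of lipoprotein lipase that rises in fasting, was at 71.6 and 26.5 CPM in WT, at 123, 99.4 and 34.5 CPM in TRPV4-KO and at 109, 118 and 169 CPM in GSK219. All GSK219 livers were above both WT livers, whereas the TRPV4-KO livers overlapped WT. The log2 difference was −1.43 ± 0.61 between WT and GSK219 (2.69-fold), −0.80 ± 0.60 between WT and TRPV4-KO and −0.63 ± 0.52 between TRPV4-KO and GSK219. Leaving out WT replicate 1 moved the first to −2.32 and the second to −1.68, and leaving out WT replicate 2 moved them to −0.89 and −0.25. The second was −0.45 without TRPV4-KO replicate 1. The third was −0.98 without TRPV4-KO replicate 1, −0.25 without TRPV4-KO replicate 3 and −0.41 without GSK219 replicate 3.

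The other genes of the pathway were read from 4 lists without the 10. In the list of fatty acid binding and uptake (29 genes, 23 tested), 0 genes were called in any comparison between liver groups, and the median log2 difference was −0.11 between WT and TRPV4-KO and −0.09 between WT and GSK219, beside −0.01 and −0.0015 over all genes. Among the smallest p-values between WT and TRPV4-KO were those of the acyl-CoA synthetase Acsl1 (−1.34 ± 0.25, adjusted p = 0.083, edgeR), lipoprotein lipase Lpl (1.32 ± 0.30, adjusted p = 0.12), the fatty acid transporter Slc27a5 (−0.41 ± 0.12, adjusted p = 0.16) and Fabp12 (3.06 ± 1.10, adjusted p = 0.22). Fabp12 rested on 7 to 12 counts in WT and 0 to 2 in TRPV4-KO livers. Of the other family members Fabp6 and Fabp9 had 0 counts in all 8 livers, and Fabp3 had 49 in all, 47 of them in 1 TRPV4-KO liver.

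In the list of lipid droplet and lipolysis genes (32 genes, 29 tested), 2 genes were called between WT and TRPV4-KO and both were lower in WT. Hsd17b13, a droplet-bound retinol dehydrogenase of hepatocytes, was at 139 ± 23.0 CPM in WT (SD, n = 2) and 355 ± 9.46 CPM in TRPV4-KO (SD, n = 3). Its log2 difference was −1.35 ± 0.15 (adjusted p = 0.011, edgeR). The related droplet protein Hsd17b11 differed by −1.05 ± 0.15 (adjusted p = 0.039). The lipase Ces1d (−2.08 ± 0.37, adjusted p = 0.077), the triglyceride synthase Dgat2 (−0.70 ± 0.18, adjusted p = 0.14) and Lpin2 (−0.80 ± 0.21, adjusted p = 0.15) did not pass. The list's median was −0.20 in both comparisons with WT, with 24 of 29 genes below 0 against TRPV4-KO and 20 of 29 against GSK219. With only these 2 groups in the fit 0 pathway genes were called. The count was also 0 without WT replicate 1, WT replicate 2, TRPV4-KO replicate 1 or TRPV4-KO replicate 2, 1 without any single GSK219 liver, and 10 without TRPV4-KO replicate 3. Against GSK219 they differed by −0.60 ± 0.14 (adjusted p = 0.42) and −0.66 ± 0.15 (adjusted p = 0.41).

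In the list of PPAR targets and fatty acid oxidation (40 genes, 39 tested), 33 genes lay below 0 in WT against TRPV4-KO and 36 against GSK219, 2 comparisons that share the WT livers. The medians were −0.39 and −0.37, where 48.8% and 49.7% of all genes lay above 0, yet 0 of 39 were called in either. The thiolase Acaa1b was at 293 ± 3.02 CPM in WT (SD, n = 2), 881 ± 259 CPM in TRPV4-KO (SD, n = 3) and 680 ± 90.9 CPM in GSK219 (SD, n = 3). It differed by −1.59 ± 0.25 (adjusted p = 0.054, edgeR) and −1.22 ± 0.25 (adjusted p = 0.39). Aldh3a2 (−1.11 ± 0.22, adjusted p = 0.099), Ehhadh (−0.76 ± 0.17, adjusted p = 0.11), Hadh (−0.58 ± 0.13, adjusted p = 0.12) and the thioesterase Acot1 (−2.46 ± 0.58, adjusted p = 0.12) followed it against TRPV4-KO. Between TRPV4-KO and GSK219 the list's median was 0.04.

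The PPAR receptors and their partners (20 genes, all tested) gave 0 calls in any comparison between liver groups, with medians of −0.29 against TRPV4-KO and −0.09 against GSK219. The smallest p-values between WT and TRPV4-KO were those of Mlxipl (−0.61 ± 0.14, adjusted p = 0.12, edgeR) and the receptors Nr1i3 (−1.15 ± 0.36, adjusted p = 0.18) and Nr1i2 (−0.55 ± 0.19, adjusted p = 0.20). Hepatocyte markers had a median of −0.21 and −0.15 in the same 2 comparisons, with 0 of 10 called, and summed to 63650 and 76296 CPM in WT against 86907 to 107332 CPM in TRPV4-KO and 85785 to 95107 CPM in GSK219. The share of hepatocyte RNA in the changes of these lists was not tested. DESeq2 called 10 genes of the 4 lists between WT and TRPV4-KO, 3 between WT and GSK219 and 1 between TRPV4-KO and GSK219.

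**Figure D3:**
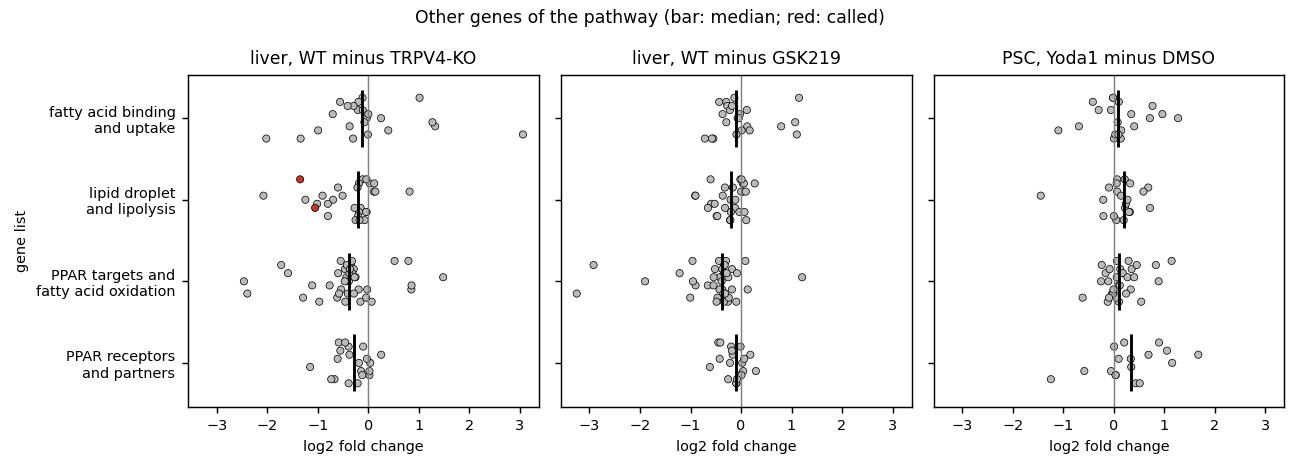
Log2 fold change (x axis) of every tested gene of the 4 pathway lists, without the 10 genes, in 2 liver comparisons (edgeR) and in PSCs (limma on log2 values). Each point is a gene, black bars are list medians and red points were called. Most PPAR target and oxidation genes lie left of 0 in both liver panels (medians −0.39 and −0.37), and the 2 red points are Hsd17b13 and Hsd17b11.

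In PSCs the levels were of another order. On the deposited scale of normalized reads per kilobase, Plin2 led the listed genes at a mean of 2000 with DMSO, followed by Angptl4 (751) and Fabp5 (664), which overlapped. Then came Cd36 (84.8), and below it Fabp4 (31.2) and Fabp7 (22.3), which overlapped too. Fabp5 and Angptl4 were therefore well read in these cells, whereas Plin4 had 1 to 12 reads per library and was not tested. The values below are normalized reads, with DMSO and Yoda1 libraries of 1 preparation named by its number.

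Cd36 was at 288, 324 and 301 with DMSO and at 546, 681 and 876 with Yoda1 in preparations 1 to 3. Every Yoda1 library was above every DMSO library, and the ratio within a preparation was 1.89, 2.10 and 2.91. The log2 difference, on the scale of log2(value + 1), was 1.18 ± 0.18 (limma). Cd36 was the 1 gene of the 6 tested that was called, where 1.01% of 15145 genes were called (71 or 0.469% higher and 82 or 0.541% lower with Yoda1). With the preparation as a block 112 and 117 genes were called, Cd36 among them. It was not called without the filter on low values, nor in any of the 6 fits that left out 1 library, over which its log2 difference ran from 1.00 to 1.34.

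Fabp4 was at 212, 103 and 105 with DMSO and at 379, 290 and 330 with Yoda1. All Yoda1 libraries were again above all DMSO libraries, as for 14.9% of genes, with ratios of 1.79, 2.81 and 3.14 and a log2 difference of 1.32 ± 0.31. Fabp5 went the opposite way, from 2676, 2156 and 2275 with DMSO to 2021, 1755 and 1073 with Yoda1. Its ratios were 0.755, 0.814 and 0.472, its groups did not overlap (15.1% of genes lay lower in this way), and its log2 difference was −0.60 ± 0.25. Without Yoda1 replicate 3 that difference was −0.32.

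Plin2 was at 5987, 6699 and 8388 with DMSO and at 7437, 9489 and 13569 with Yoda1, higher in 3 of 3 preparations although the groups overlapped, by 0.50 ± 0.25. Without Yoda1 replicate 3 this was 0.27. Angptl4 was at 2327, 2497 and 2577 with DMSO and at 2597, 2923 and 3238 with Yoda1, higher in 3 of 3 preparations, by 0.24 ± 0.10. Higher values in all 3 preparations were seen for 27.2% of genes and lower values in all 3 for 29.4%. Fabp7 was at 32.4, 39.3 and 12.1 with DMSO and at 32.0, 56.8 and 34.5 with Yoda1, and the groups overlapped (0.65 ± 0.48). That difference was 0.15 when DMSO replicate 3 was left out and 0.96 when DMSO replicate 2 was. Leaving out Yoda1 replicate 2 gave 0.39. Plin4 was at 4.99, 7.85 and 1.01 with DMSO and at 3.76, 6.58 and 9.62 with Yoda1.

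**Figure D4:**
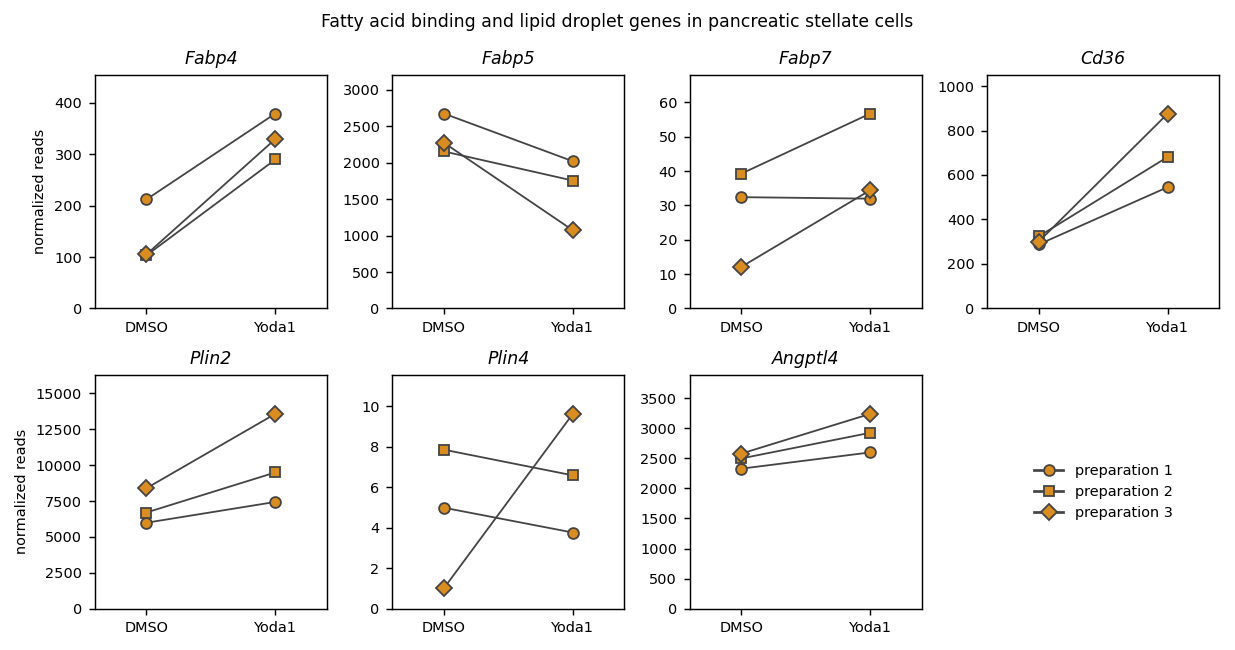
Normalized reads (y axis, linear from 0, each panel its own scale) of the 7 listed genes in PSCs with DMSO and with 25 µM Yoda1. Lines join the 2 libraries of a preparation (n = 3 preparations). Cd36, Fabp4, Plin2 and Angptl4 were higher and Fabp5 lower with Yoda1 in 3 of 3 preparations.

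Of the pathway lists in PSCs, 0 of 20 uptake genes, 0 of 21 droplet genes, 0 of 32 PPAR target and oxidation genes and 0 of 17 PPAR receptor genes were called by limma. With the preparation as a block 3 of them were called, Pdk4 higher (1.15 ± 0.11, adjusted p = 0.041) and Cav1 (−1.10 ± 0.11, adjusted p = 0.042) and the bile acid receptor Nr1h4 (−1.24 ± 0.15, adjusted p = 0.047) lower. Without the block, 3170 genes of the table had an unadjusted p under 0.05, and in these lists 3 genes had adjusted p below 0.05 but changed less than 2-fold. They were the thioesterase Acot1 (0.83 ± 0.12, adjusted p = 0.036, limma), the acyl-CoA synthetase Acsl4 (0.40 ± 0.06, adjusted p = 0.039) and Pex11a (0.40 ± 0.07, adjusted p = 0.049). Among the next were Fabp3 (0.77 ± 0.13, adjusted p = 0.051), the monoglyceride lipase Mgll (−1.45 ± 0.28, adjusted p = 0.068), Hilpda (0.68 ± 0.15, adjusted p = 0.079) and Pparg (0.51 ± 0.12, adjusted p = 0.098). List medians were 0.08, 0.20, 0.10 and 0.34 in that order, beside −0.01 over all genes.

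The stellate cell and fibroblast markers moved in the same libraries. The smooth muscle actin gene Acta2 fell by 1.70 ± 0.24 (adjusted p = 0.038, limma), and of the 12 tested markers Col3a1 was called lower too (−1.19 ± 0.075, adjusted p = 0.011) and Spp1 higher (1.71 ± 0.21, adjusted p = 0.031). Their summed level was 921070 to 1024690 normalized reads with DMSO and 481409 to 585206 with Yoda1. Adipocyte markers summed to 117 to 157 with DMSO and 171 to 183 with Yoda1, and 7 of the 10 had no reads or were not listed, Adipoq among the latter. Macrophage markers summed to 2614 to 2790 and 2380 to 3522. The 12 endothelial markers summed to 2261 to 2591 with DMSO and 1675 to 1908 with Yoda1, without overlap, though 6 of the 8 tested lay above 0 and 0 were called. Ductal and tumor epithelial markers summed to 76964 to 110692 and 63589 to 141191, and acinar markers to 1107 to 6565 and 1348 to 13070. The part of these cells in the Cd36, Fabp4 and Fabp5 values was not tested.

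The closest genes over the 8 livers differed from member to member. They were Urod, Rbp4 and Chchd10 for Fabp1 (r from 0.97 to 0.98), Cotl1, Ptgir and Plxnd1 for Fabp7 (each 0.99), and Rasl2-9, Sept1 and Il2rb for Cd36 (0.98 to 0.99). For Angptl4 they were Mmd (0.98), Ankrd13b (0.93) and Tmc4 (0.93), for Plin2 BC029722, Tmem198 and Gm48062 (0.95 to 0.96) and for Plin4 Gon4l, Ftsj3 and Wsb2 (0.98). Those of Fabp2 were Psma6, Coa3 and Dhx16 (0.92 to 0.94), of Fabp4 Lsm2, Gpat2 and Btrc (0.93 to 0.95) and of Cidec Rps27, Spink5 and Gm43692 (0.91 to 0.96). No other of the 10 genes was among these. With 8 points and 15117 genes compared, such coefficients describe these livers only.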

How the data were processed

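Liver RNA-Seq (8 mice) and PSC RNA-Seq (3 preparations, DMSO and Yoda1) were read from the tables the authors deposited. The submitters' processing notes name HISAT2 2.0.5 and Trim Galore. The counting program is not given in the sources used here. The liver table holds raw counts per gene, deposited with gene lengths as another column, and 7 of its columns matched no sample labels and were not used. The PSC table holds a signal that the authors made by dividing gene counts by a size factor. All values were whole multiples of the smallest step of their library within 0.01, so reads were recovered for depth and for a count test as an alternative. The deposited PSC table also holds the authors' own comparison (log2 fold change, standard error, statistic and p-values), which was not used.

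Counts of all 8 livers were fitted together in edgeR 4.0.16 (robust quasi-likelihood, TMM, minimum count 10) under R 4.3.3. PSC values were tested by limma 3.58.1 on log2(value + 1), for genes at 10 or more in at least 3 libraries, so fold changes of low genes are understated. P-values were adjusted over all genes by Benjamini-Hochberg. DESeq2 1.42.0, other filters, a replicate block and leaving out each library served as alternatives. Group pairs with n of 2 or 3 measure the spread between these animals or preparations only. The PSC preparations paired the libraries: same-numbered libraries deviated together with correlations of 0.43, 0.26 and 0.53. The scripts were tested on simulated data. The 10 genes and the pathway and marker lists were chosen with earlier results of these data known. Named besides the 10 were up to 5 tested genes of each pathway list with the smallest p-values, the first 3 markers of a marker list, markers that were called, and the 3 genes most correlated with each of the 10. Car3, Krt18, Lrat, Gfap, other Fabp genes, genes called between livers with Xist and Y-linked reads and genes called under the PSC block were named after their values were seen. One gene that this rule names is not reported here.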

Additional observations from a re-analysis of the deposited data

Results flagged for a closer look

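With only 1 WT liver of each kind, several genes differed between WT and TRPV4-KO in opposite directions in livers with Xist reads and in livers with Y-linked reads (log2 of CPM). They were picked out by these opposite signs. The share of all genes with opposite signs is not given here, so the pattern is not read as particular to them. The TRPV4-KO and GSK219 groups also had 1 liver with Xist reads each. The size of each interaction below was fitted in edgeR after these values were seen. Its SE takes its spread from the few groups with 2 livers of a kind, so it is given as a description with no p-value. Angptl4 was higher in WT than in TRPV4-KO by 1.05 in the livers with Xist reads, 71.6 against 34.5 CPM, and differed by −2.21 to −1.91 in those with Y-linked reads, 26.5 against 99.4 and 123 CPM. The interaction was 3.12 ± 0.26 (SE). Plin4 differed by 1.01 in livers with Xist reads and by −1.35 to −0.92 in those with Y-linked reads, an interaction of 2.16 ± 0.48. Fabp4 differed by −0.12 and by 0.73 to 0.96, an interaction of −0.96 ± 0.69. Between WT and GSK219, Plin4 differed by −0.69 in livers with Xist reads and by 0.12 to 0.13 in those with Y-linked reads, an interaction of −0.81 ± 0.45.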

How the results depend on the processing

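No called value changed sign. Among settings that kept all livers, small differences between WT and GSK219 changed sign for Cd36 (−0.24 with a term for Xist or Y-linked reads) and Fabp4 (−0.011 without the filter). Counts of calls depended on the setting. Between WT and TRPV4-KO (23 higher and 17 lower in WT, 1 of the 10 genes, 2 pathway genes), DESeq2 called 370 and 119, with 2 of the 10 and 10 pathway genes. No filter gave 100 and 40, with 5 pathway genes, and a term for Xist or Y-linked reads 252 and 73, with 2 and 8. Only these 2 groups in the fit gave 11 and 9, with 0 pathway genes. Leaving out 1 liver gave 2 to 573 and 1 to 149, with 0 to 4 and 0 to 10. Between WT and GSK219 (0 and 0, with 0 and 0), DESeq2 called 64 and 10, with 1 and 3, no filter 7 and 1, with 1 of the 10, the term for Xist or Y-linked reads 2 and 2, with 1, and only these 2 groups 2 higher, with 1. Leaving out 1 liver gave 0 to 2 higher, 0 lower and 0 to 1 of the 10. Between TRPV4-KO and GSK219 (8 and 7), DESeq2 called 45 and 48, with 1 pathway gene, no filter 18 and 20, the term for Xist or Y-linked reads 17 and 17, and only these 2 groups 4 lower. Leaving out 1 liver gave 4 to 38 and 4 to 41, with 0 to 1 pathway genes. Same-numbered livers deviated with correlations from −0.48 to 0.58. With only 2 WT livers, these values do not settle whether liver replicate numbers paired the animals. With the replicate block, WT against TRPV4-KO gave 351 and 78 calls, with 2 of the 10 and 8 pathway genes, and WT against GSK219 gave 9 higher, with 1 of the 10. In PSCs (71 higher and 82 lower with Yoda1, 1 of 6 genes, 0 pathway genes), edgeR on recovered reads called 110 and 114, with 1 pathway gene, a mean-variance trend with a robust fit 111 and 119, with 1, the replicate block 112 and 117, with 3, and no fold threshold 181 and 174, with 3. No filter left 0 of the 10 called. Leaving out 1 library gave 0 to 29 and 0 to 47, with 0 of the 10. Between livers with Xist and with Y-linked reads (159 and 130, with 6 pathway genes), leaving out 1 liver gave 75 to 247 and 84 to 156, with 3 to 6 pathway genes. The cause of these moves was not tested. Plin4 in PSCs (1 to 12 reads) and Adipoq in liver (0 to 9 counts) were read too rarely for their differences to be judged.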
